A study of Mus musculus with 8 samples.

Results

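The Hox genes of the mouse were examined in esophageal epithelium. All rows of the deposited count table whose symbol is Hox followed by a cluster letter from a to d and a number were taken, which gave 39 genes of the 55276 gene symbols in the table. They comprise 11 genes of the HoxA cluster on chromosome 6, 10 of HoxB on chromosome 11, 9 of HoxC on chromosome 15 and 9 of HoxD on chromosome 2, by GENCODE release M21 on the build GRCm38. Living cells (DAPI negative) with integrin beta-1 on their surface had been sorted from C57BL6 mice of 14 to 15 weeks into a dim and a bright fraction after staining with Cyto-ID, which labels autophagic vesicles. The dim fraction (Cyto-ID Low) and the bright one (Cyto-ID High) have 4 libraries each, and 2 female and 2 male animals (Female1, Female2, Male1, Male2) each gave 1 library of either fraction. No allele, agent or transgene is named for any group, and the sort gate defines the groups by dye and integrin only.

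Hox genes encode homeodomain transcription factors that give cells along the head-to-tail axis their regional identity. Within a cluster the genes stand in the order in which they are used along that axis, and genes at the same place in different clusters form a paralog group, numbered from the anterior (3′) end. Adult epithelial and connective tissue cells keep part of the Hox code of the region they came from, and Hox proteins bind DNA together with cofactors of the Pbx, Meis and Pknox families.

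The libraries held 26285150 to 28599954 counts in the Low group and 27486049 to 29301054 in the High group. Levels are given in CPM, counts scaled to the library size with TMM factors. Checked against the epithelial label, 10 basal keratinocyte markers (among them Krt5, Krt14 and Trp63) summed to 21218.5 to 25151.8 CPM in Low and 2810 to 4527 CPM in High, and 10 suprabasal markers (among them Krt4 and Krt13) to 8656 to 26119 CPM in Low and 147266 to 247566 CPM in High. All 10 basal markers fell and all 10 suprabasal markers rose in High, past the threshold described below. The High library of Male2 stood apart, with 22208 genes detected against 24820 to 27395 in the other High libraries. It also had the lowest summed level of non-epithelial markers. Its 10 fibroblast markers summed to 60.1 CPM, where the other 7 libraries had 212 to 649 CPM, and none of the 10 was at 0. Both Female2 libraries held gastric transcripts (11 markers, 19.1 CPM in Low and 116 CPM in High, against 0.392 to 1.44 CPM in the others).

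To show what lies at the start of the genes that the results turn on, the 250 bases before the annotated start were read from RefSeq's promoter table (build GRCm38.p6), which held 22 of the 39 genes. Hoxa2 (chr6:52164832-52165081, minus strand), Hoxa5 (chr6:52204588-52204837, minus strand) and Hoxb4 (chr11:96318017-96318266, plus strand) are members that were lower in Cyto-ID High, and Hoxd8 (chr2:74704365-74704614, plus strand) is one that was not called. By gene span, the Hoxa2 window lies within the gene model Gm28308, that of Hoxa5 within Gm28308, Hoxa3 and Hoxaas3, and that of Hoxd8 within Hoxd3os1. Whether exons of these lie in the windows is not given here. Capitals mark matches, on either strand, to 6 short motifs: CCAAT (the CCAAT box), the TATA box TATAAA, the homeodomain core TAATTA, the Pbx and Hox composite TGATTNAT, the Meis and Pknox site TGACAG, and AGGTCA (a half-site of nuclear receptors such as those of retinoic acid).
Hoxa2: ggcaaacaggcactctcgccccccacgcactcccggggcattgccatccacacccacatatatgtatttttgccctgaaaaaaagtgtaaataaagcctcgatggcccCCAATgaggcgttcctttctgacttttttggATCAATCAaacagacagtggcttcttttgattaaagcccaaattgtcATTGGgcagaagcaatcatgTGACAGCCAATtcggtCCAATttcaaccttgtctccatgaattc
Hoxa5: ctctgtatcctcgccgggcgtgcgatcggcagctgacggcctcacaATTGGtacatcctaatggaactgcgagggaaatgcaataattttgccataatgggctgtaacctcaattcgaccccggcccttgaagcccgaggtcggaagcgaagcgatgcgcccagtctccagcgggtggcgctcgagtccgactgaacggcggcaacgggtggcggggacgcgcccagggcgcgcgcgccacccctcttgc
Hoxb4: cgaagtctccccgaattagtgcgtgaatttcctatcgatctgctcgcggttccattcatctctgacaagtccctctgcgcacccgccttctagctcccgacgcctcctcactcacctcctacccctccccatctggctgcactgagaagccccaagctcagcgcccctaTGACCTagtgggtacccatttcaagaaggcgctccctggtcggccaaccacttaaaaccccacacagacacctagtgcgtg
Hoxd8: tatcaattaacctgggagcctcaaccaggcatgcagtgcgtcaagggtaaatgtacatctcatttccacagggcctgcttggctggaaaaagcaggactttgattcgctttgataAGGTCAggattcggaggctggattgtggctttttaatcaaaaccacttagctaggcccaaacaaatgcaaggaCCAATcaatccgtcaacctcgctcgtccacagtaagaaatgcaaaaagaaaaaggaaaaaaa
The Hoxa2 window held 4 matches to CCAAT, 1 to TGATTNAT and 1 to TGACAG, the last of which adjoins a CCAAT match. Hoxa5 held 1 match to CCAAT, Hoxb4 held 1 to AGGTCA, and Hoxd8 held 1 to CCAAT and 1 to AGGTCA. Among all 32851 promoters of the same length, 33.8% held CCAAT, 12.4% TATAAA, 4.84% TAATTA, 2.82% TGATTNAT, 15.9% TGACAG and 14.0% AGGTCA. Of the 24 Hox promoters, 14 held CCAAT, 4 TATAAA, 2 TAATTA, 2 TGATTNAT, 2 TGACAG and 6 AGGTCA. The Hox windows had a median of 12.5 CpG dinucleotides (2 to 35), where all promoters had a median of 6, and a median GC content of 58.6% against 52.4%.

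The Hox transcripts of this epithelium came mostly from the HoxC cluster, and no transcript of a group beyond 9 reached the threshold used here. Of the 39 genes, 20 were expressed, here meaning at least 10 counts in at least 4 libraries, and the same number had enough counts to be tested. Of the 20, 15 had a mean of at least 1 CPM: Hoxa2, Hoxa3, Hoxa4, Hoxa5, Hoxa7 and Hoxa9, Hoxb2, Hoxb3, Hoxb4 and Hoxb7, Hoxc4, Hoxc5, Hoxc6 and Hoxc8, and Hoxd8. Per kb of exon, Hoxc4 was highest in Cyto-ID Low at 20.9 ± 3.3 CPM per kb (SD, n = 4), which placed it above 86.0% of the tested genes. Hoxc5 followed at 13.1 ± 2.0 CPM per kb, and then Hoxc6 at 6.51 ± 0.96 and Hoxc8 at 6.46 ± 0.88, which did not differ beyond their spread. The next were Hoxa4 at 5.87 ± 1.73, Hoxa2 at 3.99 ± 1.91 and Hoxa5 at 3.52 ± 1.03 CPM per kb, and the spreads of neighbours in this order overlapped. The remaining 13 tested genes lay between 0.118 and 1.64 CPM per kb.

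In Cyto-ID High the order changed below the first 2 places. Hoxc4 was at 18.8 ± 4.8 CPM per kb (SD, n = 4) and Hoxc5 at 13.6 ± 5.6, and their spreads overlapped. Hoxc8 was next at 10.99 ± 1.13, within the spread of Hoxc5. Hoxc6 followed at 4.83 ± 1.43 CPM per kb. No other Hox gene exceeded 1.09 CPM per kb in High, the level of Hoxa4.

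**Figure D1:**
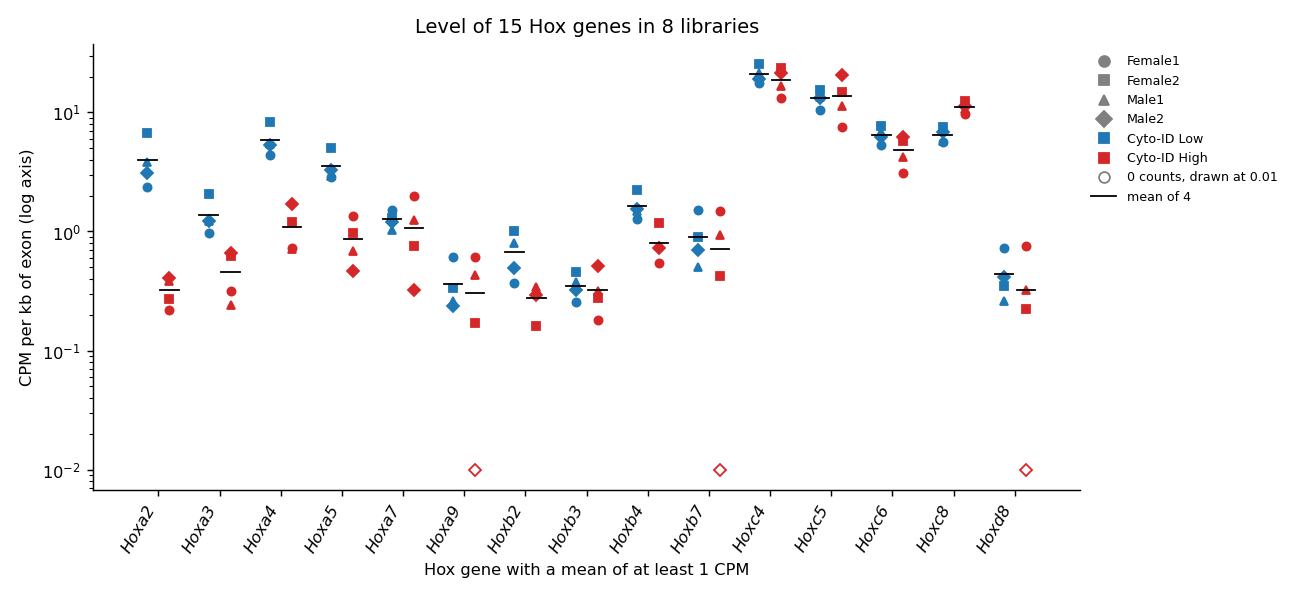
Level of each of the 15 Hox genes with a mean of at least 1 CPM, in CPM per kb of exon (log axis) in the 8 libraries, blue for Cyto-ID Low and red for Cyto-ID High, with a symbol for each animal and a line at the mean of 4. The 4 HoxC genes have the highest means in both fractions, Hoxa2 to Hoxa5 lie lower in High without overlap, and the open symbols at the bottom are genes with 0 counts in the High library of Male2.

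The other 19 genes had too few counts to be tested. No count was found in any library for Hoxa11, Hoxa13, Hoxd11 and Hoxd12. The other 15 had at most 17 counts in any library, and the highest sums over the 8 libraries were 52 for Hoxd4, 46 for Hoxa6, 31 for Hoxc10 and 25 for Hoxc9. Beyond paralog group 9, genes that pattern the hindgut, limbs and genital region in the embryo, no member of any cluster reached the threshold for expression. Exons of Hoxd3 and Hoxd4 overlap on the same strand, as do those of Hoxc5 and Hoxc10 by 166 bases, and how such reads were assigned is not given in the sources used here.

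Each library was next described by the share of its Hox counts that each cluster took. HoxC held 71.7% ± 2.8 of them in the Low and 85.7% ± 6.7 in the High libraries (SD, n = 4 each), and HoxA held 21.1% ± 2.4 and 8.32% ± 3.64. The HoxA share was 20.6%, 24.6%, 19.4% and 19.7% in the Low libraries of Female1, Female2, Male1 and Male2, and 13.5%, 6.53%, 8.08% and 5.19% in the High libraries. Every High value of HoxA was thus below every Low value. HoxB held 6.16% ± 0.49 in Low and 4.85% ± 2.04 in High, and HoxD 1.12% ± 0.61 and 1.13% ± 1.07. The HoxD share was lowest, at 0.0285%, in the High library of Male2. The summed level of all Hox genes was 180 ± 31 CPM in Low and 154 ± 29 CPM in High.

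**Figure D2:**
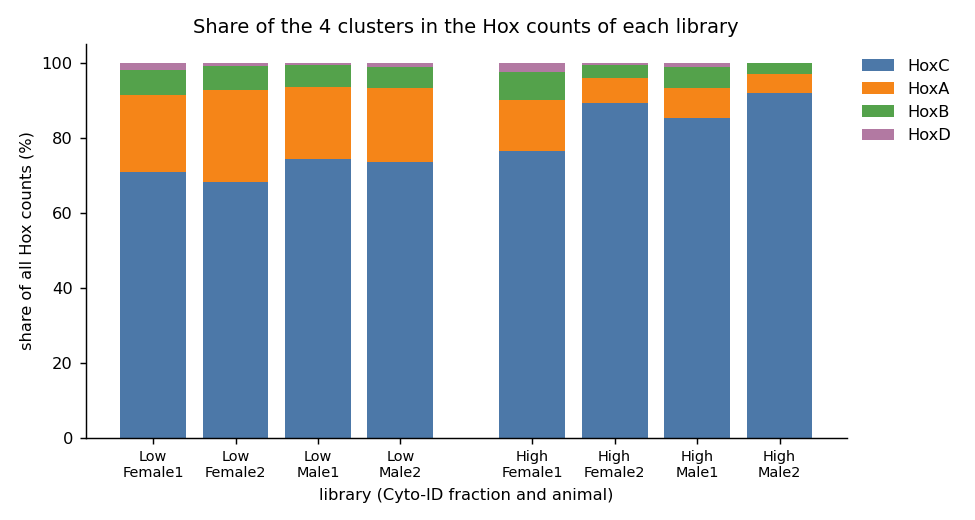
Share (%) of the HoxC, HoxA, HoxB and HoxD clusters in all Hox counts of each library, with Cyto-ID Low on the left and High on the right. HoxA takes 19.4% to 24.6% in the Low libraries and 5.19% to 13.5% in the High libraries.

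The fractions were compared to see which Hox genes differ between sorted cells with dim and with bright staining. Of the 20 tested members 8 passed the threshold, 7 lower and 1 higher in Cyto-ID High (edgeR's quasi-likelihood test with sex as a covariate, Benjamini-Hochberg adjusted p under 0.05 over all 17344 tested genes). The genes with a mean of at least 1 CPM that fell were Hoxa2, Hoxa3, Hoxa4, Hoxa5, Hoxb2 and Hoxb4, and the gene that rose was Hoxc8. Over all tested genes 48.7% passed, 25.3% lower and 23.4% higher, so that the share of members called (40%) was no larger than the background. The median log2 fold change of the tested members was −0.34, beside −0.09 for all genes. For 8 of the 20 members the CPM of the fractions did not overlap, where this held for 48.6% of all genes. Of the 20 members 6 had passed the filter through the Low libraries alone, and none through the High libraries alone, so the counts of members called carry that selection. In bulk RNA fewer cells of a type and less RNA per cell cannot be told apart.

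Neighbouring genes of the anterior part of HoxA fell together. Hoxa2 to Hoxa5, which are used in the hindbrain, pharynx and foregut of the embryo, had log2 fold changes from −1.58 to −3.64, and all 4 passed. Their summed level was 22.4, 47.2, 28.2 and 27.5 CPM in the Low libraries (Female1, Female2, Male1, Male2) and 5.94, 7.97, 4.58 and 8.28 CPM in the High ones. All High libraries lay below all Low libraries. In the High library of Male2, where fibroblast markers were lowest, Hoxa2, Hoxa3 and Hoxa4 were at their highest level of the 4 High libraries, and Hoxa5 was at its lowest. The 10 basal markers fell from Low to High by a median of 2.49 on the log2 scale. The part of the basal content in the change of Hoxa2 to Hoxa5 was not tested.

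Hoxa2, which patterns the second pharyngeal arch, had the largest change of all members tested. It was at 4.20, 11.9, 6.74 and 5.46 CPM in the Low libraries of Female1, Female2, Male1 and Male2, and at 0.386, 0.479, 0.686 and 0.720 CPM in their High libraries. The Low libraries thus lay clear of the High ones, with Female2 the highest. The log2 fold change was −3.64 (SE 0.40, edgeR adjusted p 7.18e-05), a 12.5-fold lower level, and rested on 10 to 18 counts in High and 136 to 434 in Low. Its exons share 267 bases with Gm28308, a readthrough model that has 0 counts in all libraries.

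Hoxa4 and Hoxa5, which lie side by side, followed in size of change. Hoxa4 was at 6.98, 13.3, 8.60 and 8.54 CPM in the Low libraries (Female1, Female2, Male1, Male2) and at 1.16, 1.92, 1.14 and 2.73 CPM in the High libraries. Its log2 fold change was −2.45 (SE 0.34, edgeR adjusted p 0.000266), and its groups did not overlap. Hoxa5, a regulator of lung and airway development, was at 5.37, 9.46, 5.47 and 6.13 CPM in Low and at 2.51, 1.83, 1.30 and 0.875 CPM in High. The change was −2.07 (SE 0.28, edgeR adjusted p 0.000215), again without overlap. Hoxa5 shares no exonic base with another gene, while 255 bases of Hoxa4 lie opposite exons of Gm29430, which has at most 4 counts in a library.

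Hoxa3 changed less. This gene, which is needed for the thymus and parathyroid, was at 5.87, 12.5, 7.36 and 7.37 CPM in the Low libraries (Female1, Female2, Male1, Male2) and at 1.89, 3.74, 1.45 and 3.96 CPM in the High ones. Its change was −1.58 (SE 0.37, edgeR adjusted p 0.00542), and every High value was below every Low value. Exons of 5730596B20Rik, Gm29430, Hoxaas2 and Hoxaas3 lie opposite exons of Hoxa3, and since the strand setting of the counting is not given in the sources used here, its reads are uncertain.

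In the HoxB cluster Hoxb2 and Hoxb4 fell and Hoxb3 between them did not pass. Hoxb4, known for its action in blood stem cells, was at 3.27, 5.75, 3.82 and 3.95 CPM in the Low libraries (Female1, Female2, Male1, Male2) and at 1.39, 3.05, 1.94 and 1.85 CPM in the High ones. The groups did not overlap, and the change was −1.03 (SE 0.29, edgeR adjusted p 0.0158). Hoxb2 was at 1.30, 3.49, 2.80 and 1.72 CPM in Low and at 1.04, 0.566, 1.18 and 1.03 CPM in High, and changed by −1.29 (SE 0.39, edgeR adjusted p 0.0208). Its lowest Low library, Female1, lay just above the highest High library, Male1, and 953 of its exonic bases lie opposite Hoxb3os. Hoxb3 was at 1.08, 1.92, 1.62 and 1.36 CPM in Low and at 0.772, 1.18, 1.33 and 2.16 CPM in High. The ranges overlapped, with a change of −0.19 (95% interval −0.98 to 0.59, edgeR adjusted p 0.693), and 2250 of its exonic bases lie opposite Hoxb3os.

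Both HoxB calls were lost without some libraries. Without the Low library of Female2, Hoxb4 changed by −0.84 (edgeR adjusted p 0.0626) and Hoxb2 by −0.87 (0.0953). The call of Hoxb2 was also lost without the High library of Female2 (−1.09, edgeR adjusted p 0.0666) or the Low library of Male1 (−1.21, 0.0788). With neither library of Female2, the animal with gastric transcripts, Hoxb2 changed by −0.76 (edgeR adjusted p 0.153). With neither library of Male2, Hoxb4 changed by −0.96 (edgeR adjusted p 0.0639).

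**Figure D3:**
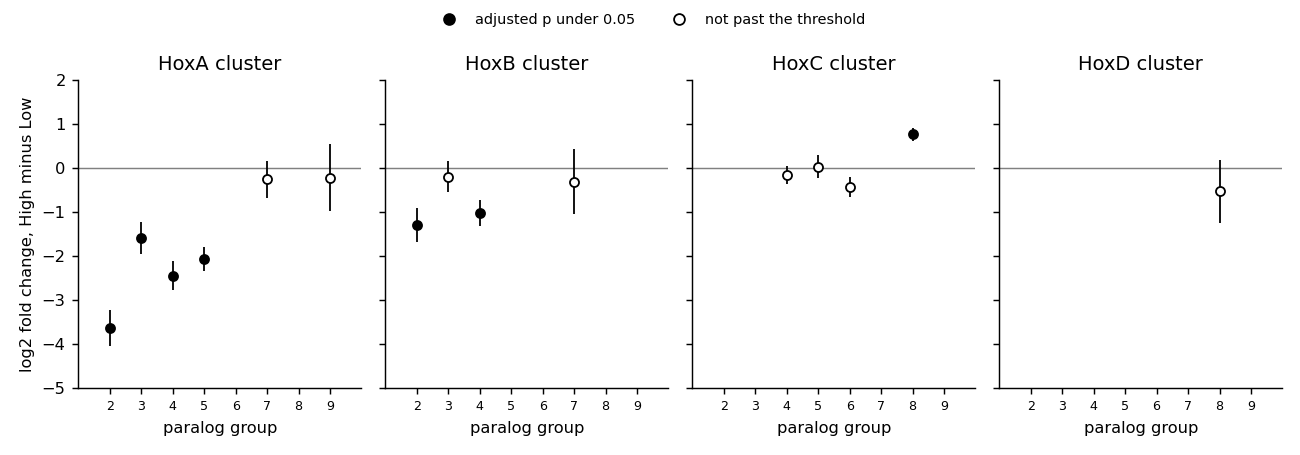
Log2 fold change (Cyto-ID High minus Low, with SE) of the 15 Hox genes with a mean of at least 1 CPM, by cluster and paralog group, filled where the adjusted p is under 0.05. In HoxA the 4 filled points run from −1.58 to −3.64 and stop at paralog group 5, while in HoxC the 1 filled point, Hoxc8, lies above 0.

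The HoxC genes, the most abundant members, behaved otherwise. Hoxc8, which patterns the thoracic level in the embryo, was at 16.0, 21.2, 16.4 and 19.5 CPM in the Low libraries (Female1, Female2, Male1, Male2) and at 27.6, 35.2, 30.0 and 31.8 CPM in the High ones. All High libraries lay above all Low libraries. The log2 fold change was 0.77 (SE 0.15, edgeR adjusted p 0.00196), or 1.70-fold, but it was 0.20 (adjusted p 0.273) when only the total counts set the scaling. Under that scaling the median of all tested genes was −0.64.

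Hoxc4 was at 45.7, 65.1, 55.4 and 48.7 CPM in the Low libraries (Female1, Female2, Male1, Male2) and at 33.6, 61.1, 42.7 and 55.3 CPM in the High ones. The fractions overlapped, and the log2 difference of −0.16 had a 95% interval from −0.62 to 0.31 (edgeR adjusted p 0.578). Hoxc5 was at 32.2, 47.2, 41.5 and 40.7 CPM in Low and at 23.3, 46.2, 34.9 and 63.7 CPM in High. It was lower in High in 3 animals and higher in Male2, with a log2 difference of 0.03 (95% interval −0.56 to 0.62, edgeR adjusted p 0.933). A change of the size seen in Hoxa2, Hoxa4 or Hoxa5 therefore lay outside the intervals of both genes.

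Hoxc6 was at 12.9, 18.4, 16.4 and 15.1 CPM in the Low libraries (Female1, Female2, Male1, Male2) and at 7.41, 14.0, 10.3 and 14.9 CPM in the High ones. It was lower in High in all 4 animals, although the ranges overlapped, and its log2 difference of −0.44 (SE 0.23, edgeR adjusted p 0.145) did not pass. When animals entered the fit as a replicate block it did, at −0.47 (edgeR adjusted p 0.0311). Scaling by total counts only gave calls for Hoxc4 (−0.75, adjusted p 0.00487), Hoxc5 (−0.58, 0.0427) and Hoxc6 (−1.04, 0.00164), all lower, whereas Hoxa2 to Hoxa5, Hoxb2 and Hoxb4 fell under every scaling tried.

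Since a scaling acts on all genes of a library alike, it cancels in the ratio of 2 genes within a library. All 8 pairs of members of 1 paralog group with a mean of at least 1 CPM were compared in this way. The log2 ratio of Hoxa4 over Hoxc4 was −2.71, −2.29, −2.68 and −2.51 in the Low libraries (Female1, Female2, Male1, Male2) and −4.84, −4.98, −5.20 and −4.33 in the High ones. It thus moved by −2.29 without overlap. Hoxa5 over Hoxc5 moved by −2.04, Hoxb4 over Hoxc4 by −0.86, Hoxa4 over Hoxb4 by −1.43, Hoxa2 over Hoxb2 by −2.32 and Hoxa3 over Hoxb3 by −1.45. In these 6 pairs no High library overlapped a Low one, and each had p = 0.0286 in an exact two-sided permutation test, the smallest that 4 against 4 libraries can give (adjusted over 8 pairs 0.0381). That test takes the 8 libraries as independent. The ratios were also chosen after the levels of these genes had been seen, so the p-values are no separate support for the calls above. When the fractions were swapped within the 4 animals only, each of the 6 pairs had an exact two-sided permutation p of 0.125, the smallest that 4 animals can give, so no pair could pass, and all 6 ratios were lower in High in 4 of 4 animals. In the 5 of these 6 pairs with a HoxA gene, the ratio was thus lower in every High library than in any Low one. The other pair of the 8 with a HoxA gene, Hoxa7 over Hoxb7, did not follow, and its fractions overlapped.

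The other 2 pairs did not pass. Hoxa7 over Hoxb7 moved by 0.90 (exact permutation p = 0.571, adjusted 0.571), and Hoxc8 over Hoxd8 by 2.21 (exact permutation p = 0.143, adjusted 0.163). In the High library of Male2 Hoxb7 and Hoxd8 had 0 counts, and without it the ratios moved by −0.04 and 0.86.

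**Figure D4:**
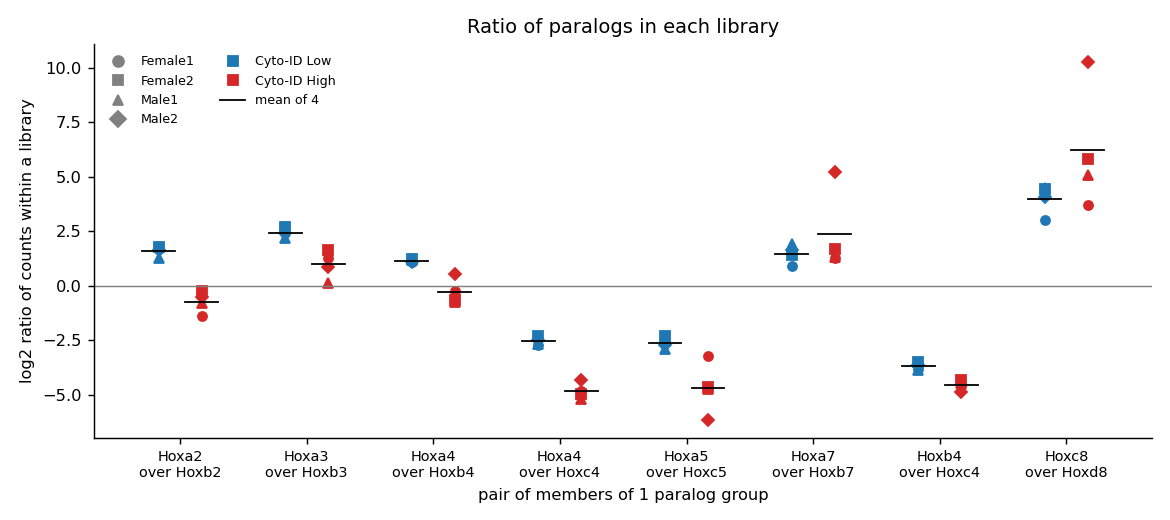
Log2 ratio of the counts of 2 members of a paralog group within each library (0.5 added to each count), blue for Cyto-ID Low and red for Cyto-ID High, with lines at the mean of 4. In 6 of the 8 pairs the High libraries all lie below the Low ones, and the High library of Male2 lies far above the others for Hoxc8 over Hoxd8 and Hoxa7 over Hoxb7.

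The 8 tested genes of paralog groups 6 to 9 outside HoxC formed a further set: Hoxa7, Hoxa9, Hoxb6, Hoxb7, Hoxb8, Hoxb9, Hoxd8 and Hoxd9. None passed in either direction (over all genes 48.7% passed), and their log2 differences lay between −0.52 and 0.34 with standard errors of 0.42 to 0.76. Of the 8, Hoxa9, Hoxb6, Hoxb7, Hoxb9 and Hoxd8 had passed the filter on low counts through the Low libraries alone. They spread widely within the High fraction. Their summed level was 14.7, 10.1, 6.96 and 8.81 CPM in the Low libraries (Female1, Female2, Male1, Male2) and 17.2, 5.35, 10.4 and 1.18 CPM in the High ones. The High libraries thus ran from the highest to the lowest value of all 8.

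The sum of the 10 fibroblast markers stood in the same order in the High libraries, at 631 CPM in Female1, 449 in Male1, 212 in Female2 and 60.1 in Male2. In the Low libraries the order was another, with 649 CPM in Male2, 642 in Female1, 496 in Female2 and 451 in Male1. The sums of endothelial, muscle, leukocyte and Schwann cell markers had the order of the fibroblast sum in High too. They were lowest in the High library of Male2, at 21.5, 6.997, 25.4 and 5.61 CPM. The other libraries had 32.8 to 61.1, 22.0 to 66.5, 44.1 to 114 and 10.6 to 26.6 CPM. The part of these cells in the levels of the 8 genes was not tested. Of the 10 fibroblast markers Dcn (−2.87) and Fbln1 (−1.93) differed between the fractions, both lower in High.

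Hoxa7 was the most abundant of the 8 by CPM. It was at 4.35, 3.71, 2.98 and 3.47 CPM in the Low libraries (Female1, Female2, Male1, Male2) and at 5.67, 2.18, 3.62 and 0.926 CPM in the High ones. Its change of −0.26 (SE 0.42, edgeR adjusted p 0.661) turned to 0.04 without the High library of Male2. Exons of Hoxaas3 lie opposite it over 586 bases.

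Hoxa9, which acts in blood progenitors, was at 3.40, 1.87, 1.46 and 1.33 CPM in Low and at 3.40, 0.958, 2.40 and 0 CPM in High. Hoxb7 was at 2.32, 1.37, 0.777 and 1.09 CPM in Low and at 2.32, 0.653, 1.45 and 0 CPM in High. Hoxd8 was at 1.98, 0.962, 0.714 and 1.15 CPM in Low and at 2.08, 0.609, 0.877 and 0 CPM in High. All 3 were about level in both fractions of Female1, higher in High in Male1, and without a count in the High library of Male2. At the depth of that library a count of 0 allows up to 3 counts. The log2 differences were −0.22 (SE 0.76) for Hoxa9, −0.31 (SE 0.74) for Hoxb7 and −0.52 (SE 0.72) for Hoxd8, with edgeR adjusted p of 0.844, 0.773 and 0.595. Without that library they were 0.16, 0.07 and −0.10.

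**Figure D5:**
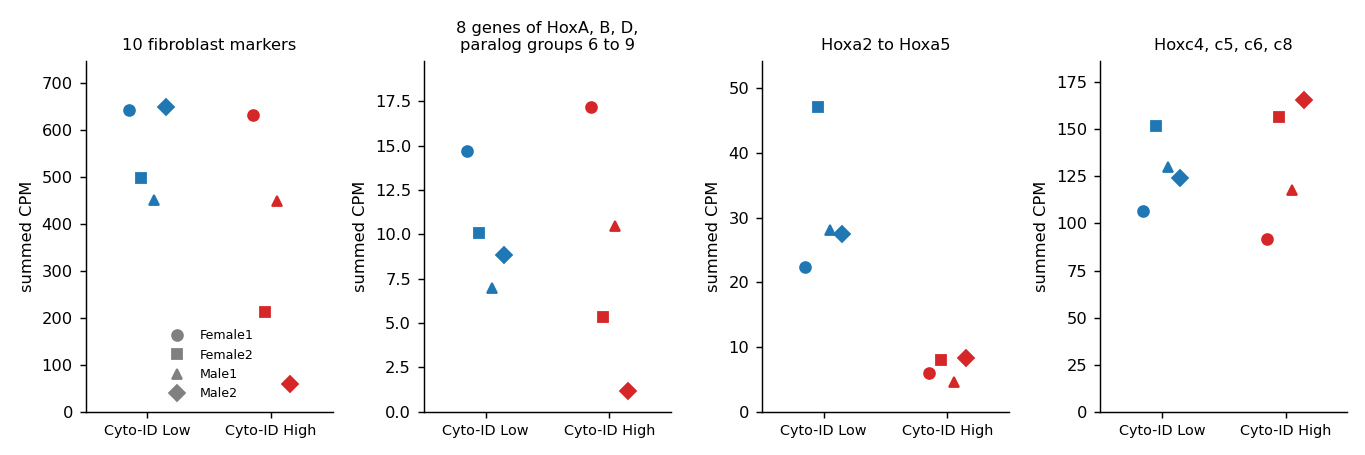
Summed CPM of 10 fibroblast markers, of the 8 tested genes of HoxA, HoxB and HoxD in paralog groups 6 to 9, of Hoxa2 to Hoxa5 and of the 4 HoxC genes in each library, by fraction and with a symbol for each animal. In the High fraction the first 2 panels have the same order of animals, from Female1 to Male2, while Hoxa2 to Hoxa5 lie between 4.58 and 8.28 CPM in all 4 High libraries.

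Sex was the other factor that the design allows. None of the 20 members had a fraction difference that depended on sex (edgeR's interaction test), with 0 at an unadjusted p under 0.05 as well, and DESeq2 and limma-voom also called 0. Over all genes 0% passed, with 19 of 17344 at an unadjusted p under 0.05. That is fewer than evenly spread p-values would give, so the test was conservative here, and it does not show that the sexes were alike.

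The clusters also hold transcripts that are not translated into Hox proteins, many of them antisense and some known to act on the Hox genes beside them. Of 18 such RNAs listed, 17 were in the table and 5 were tested, and 4 of these fell in Cyto-ID High (over all genes 25.3%), all of them from HoxA or next to it. Of the 5, Hoxaas2 and Hoxb3os had passed the filter on low counts through the Low libraries alone, so the count carries that selection. Hotairm1, a regulator at the anterior end of HoxA, fell from 4.00 ± 0.96 to 0.654 ± 0.156 CPM (SD, n = 4 each; −2.62, SE 0.30, edgeR adjusted p 8.61e-05). Halr1, a long noncoding RNA, fell from 7.47 ± 3.603 to 1.74 ± 0.59 CPM (−2.11, SE 0.40, edgeR adjusted p 0.00165). Hoxaas2, opposite Hoxa3, stood at 2.32 ± 0.69 CPM in Low and 0.192 ± 0.133 in High, and its log2 change was −3.62 (SE 0.51, edgeR adjusted p 0.000308). Hoxaas3 changed by −1.06 (SE 0.39, edgeR adjusted p 0.0456), and under median-ratio (RLE) scaling 3 of the 5 passed in place of 4. Hoxb3os, at 0.555 ± 0.117 CPM in Low and 0.226 ± 0.208 in High, did not pass (edgeR adjusted p 0.111). Under scaling by total counts all 5 were lower, Hoxb3os among them (−1.82, edgeR adjusted p 0.0460). Since strand use in the counting is not given, reads of the overlapping sense and antisense pairs cannot be told apart.

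The cofactors with which Hox proteins bind DNA were counted next. All 9 genes of the Pbx, Meis and Pknox families were tested, of which 6 were lower and 2 higher in Cyto-ID High (over all genes 25.3% and 23.4%), with a median log2 fold change of −0.80. Meis2 stood at 14.9 ± 4.1 CPM in Low and 5.61 ± 1.63 in High (SD, n = 4 each), and its change was −1.41 (SE 0.20, edgeR adjusted p 0.000355). Meis1 fell from 49.1 ± 6.8 to 28.1 ± 4.2 CPM (−0.80, SE 0.16, edgeR adjusted p 0.00222) and Pknox1 from 26.4 ± 4.8 to 14.9 ± 2.5 CPM (−0.83, SE 0.18, edgeR adjusted p 0.00365). The 2 that rose, Pbx3 (0.57, SE 0.19) and Pbx4 (1.02, SE 0.30), were at −0.02 and 0.45 and not called under scaling by total counts, which gave 0 higher and 7 lower.

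Factors that keep Hox genes active or silent were counted in the same way. Of 11 trithorax and MLL complex genes, which hold Hox genes active, 2 fell and 1 rose (over all genes 25.3% and 23.4%), with a median of −0.21. Psip1, which tethers MLL to chromatin, fell from 44.5 ± 7.7 to 16.4 ± 1.7 CPM (SD, n = 4 each; −1.44, SE 0.16, edgeR adjusted p 8.11e-05), and Wdr5 changed by −0.59 (SE 0.14, edgeR adjusted p 0.00578). Dpy30 rose by 0.40 (SE 0.12, edgeR adjusted p 0.0236) but was at −0.16 and not called under total counts, where 10 of the 11 were lower and 0 higher. Of 28 Polycomb genes, which hold Hox genes silent, 15 fell and 4 rose (over all genes 25.3% and 23.4%), with a median of −0.43, and under total counts 23 fell and 1 rose. Pcgf2 fell from 34.4 ± 5.3 to 10.4 ± 2.8 CPM (−1.73, SE 0.20, edgeR adjusted p 0.000102) and Cbx6 from 83.5 ± 12.1 to 26.6 ± 5.8 CPM (−1.65, SE 0.18, edgeR adjusted p 7.47e-05).

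Retinoic acid, which induces the anterior Hox genes in the embryo, was represented by 18 genes of its synthesis, breakdown and receptors. Of these 14 were tested, 4 higher and 4 lower (over all genes 23.4% and 25.3%), with a median of −0.05, and under total counts 2 were higher and 4 lower. Crabp2, which carries retinoic acid to its receptor, rose from 48.1 ± 16.9 to 437 ± 45 CPM (SD, n = 4 each; 3.20, SE 0.28, edgeR adjusted p 2.33e-05). Aldh1a1, an enzyme that makes retinoic acid, rose from 40.9 ± 7.3 to 86.3 ± 16.8 CPM (1.09, SE 0.18, edgeR adjusted p 0.000793). The receptor Rara fell from 22.8 ± 3.7 to 11.03 ± 4.05 CPM (−1.06, SE 0.23, edgeR adjusted p 0.00343). The ParaHox and Evx genes, relatives of the Hox genes outside or at the ends of the clusters, had at most 3 counts in any library and none of the 8 was tested.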

How the data were processed

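RNA of sorted mouse esophageal cells was sequenced in bulk. Raw counts were deposited by the authors, with a row for each gene symbol and a column for each of the 8 libraries. That they are raw follows from the values: whole numbers whose sums vary between libraries. The submitters' processing notes name STAR 2.7.3, DESeq2 and the build GRCm38; the counting tool, annotation, strand setting and filters are not given in the sources used here. The 39 Hox members and all gene lists were chosen with earlier results of these data known.

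The counts were fitted with edgeR 4.0.16 (R 4.3.3): filterByExpr by fraction kept 17344 genes, libraries were scaled by TMM (trimmed mean of M values), and glmQLFit and glmQLFTest used all 8 libraries and a sex term, two-sided, Benjamini-Hochberg adjusted over all tested genes with a threshold of 0.05. SEs are the fold change divided by the root of F, and 95% intervals from these. Exon lengths and overlaps came from GENCODE M21, in which all 39 members were found. Full values were given for members with a mean of at least 1 CPM, and from each list for up to 3 called genes with the largest change and at least 5 CPM, beside Hox cluster RNAs with at least 10 counts in 4 libraries, while Pbx3 and Pbx4 were named outside that rule, after their values were seen. Some genes of the rule are not reported here. The fit was tested on simulated data.

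The titles give each animal 1 library of either fraction. Their deviations from the fraction means correlated at 0.43 (Female1), 0.32 (Female2), −0.02 (Male1) and 0.28 (Male2) across genes. Replicates within a fraction differed beyond sampling noise (chi-square per degree of freedom at least 17.7 in 12 pairs). Alternatives were RLE scaling, total counts, no filter, a robust dispersion fit, a minimum of 10 counts per library, limma-voom (limma 3.58.1), DESeq2 1.42.0, a replicate block by animal, no sex term, and leaving out each library or both of Female2 or Male2. The paralog ratios, with 0.5 added to counts, and their alternatives (1 added, each library left out, fractions swapped within animals) were chosen after seeing the data.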

Additional observations from a re-analysis of the deposited data

Results flagged for a closer look

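Within each fraction the highest and the lowest of the 4 libraries were tested for distance from the others by Dixon's test for the 20 Hox genes, which gave 40 groups, and chance alone singles out about 1 in 20. The test singled out 1 value. Hoxb9 was at 0.311 CPM in the Low library of Male1, where the other Low libraries had 0.440 to 0.463 CPM, a distance that rests on few counts (10 against 15, 16 and 15).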

How the results depend on the processing

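Hoxa2, Hoxa3, Hoxa4 and Hoxa5 kept their direction and call in all 19 alternatives that gave them a value, and Hoxc8 in all but total counts. The count of lower members was 4 to 7 when 1 library was left out, 4 being without the Low library of Female2, and 5 to 10 otherwise. That of higher members was 1 in all alternatives except total counts, with 0. Total counts gave 10708 differing genes (2194 higher, 8514 lower) in place of 8440 (4055 higher, 4385 lower), and the other alternatives gave 7269 to 9336. The replicate block changed no call among the members other than that of Hoxc6 (−0.47, adjusted p 0.0311), and gave 8 lower members.

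Only members that were not called changed sign. Under total counts Hoxb8 was −0.28, Hoxc5 −0.58 and Hoxd9 −0.15. Hoxc5 was −0.0058 without a filter, −0.011 with at least 10 counts in every library, −0.028 in limma-voom, −0.025 under the replicate block and −0.16 without both Male2 libraries, and Hoxb8 was −0.26 in limma-voom and −0.0011 under the block. Without both Female2 libraries Hoxb3 was 0.016. Without both Male2 libraries Hoxa7 was 0.12, Hoxa9 0.10, Hoxb6 0.063, Hoxb7 0.12, Hoxb9 0.34 and Hoxd8 0.061. Over the fits without 1 library Hoxc4 ran from −0.33 to 0.011, Hoxc5 from −0.21 to 0.25, Hoxa7 from −0.64 to 0.045, Hoxa9 from −1.18 to 0.16, Hoxb3 from −0.43 to 0.078, Hoxb7 from −1.14 to 0.067, Hoxb8 from −0.41 to 0.57, Hoxb9 from −1.16 to 0.16 and Hoxd9 from −0.37 to 0.66. The Hoxa7 over Hoxb7 ratio moved by −0.045 without the High library of Male2, and by up to 1.26 without 1 other. The cause of these changes was not tested. The 8 genes of paralog groups 6 to 9 outside HoxC had at most 147 counts in a library.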

Other observations

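Inside the spans of the 4 clusters the annotation places 46 further transcripts, 22 of them without any count and 8 of them tested. Of these 8, 4 were lower in Cyto-ID High and 0 higher (over all genes 25.3% and 23.4%), and all 4 belong to HoxA: Hotairm1, Hoxaas2, Hoxaas3 and Gm27477. Of the 8, Gm27477, Hoxaas2, Gm53 and Hoxb3os had passed the filter on low counts through the Low libraries alone, so the count carries that selection. Gm27477, a short RNA model beside Hoxa2, had 1.00 ± 0.35 CPM in the Low and 0.223 ± 0.071 in the High libraries (SD, n = 4 each), a log2 change of −2.17 (SE 0.43, edgeR adjusted p 0.00215). Gm15050, which lies within Hoxa3, was at 1.81 ± 0.46 and 1.11 ± 0.48 CPM and did not pass (edgeR adjusted p 0.116). Gm53, a long noncoding RNA between Hoxb13 and Hoxb9, had 28, 26, 15 and 19 counts in the Low libraries of Female1, Female2, Male1 and Male2, and 22, 6, 21 and 0 in the High ones. The High library of Male2 was thus the only one without a count, as for Hoxb3os and for Hoxa9, Hoxb7, Hoxb8 and Hoxd8.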
